A study of Homo sapiens with 18 samples.

Results

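The pyruvate dehydrogenase complex and its regulators were followed in 9 clones of HCT116, an established human colorectal carcinoma line, by their transcript signals on expression arrays. The 10 genes were the core subunits PDHA1, PDHB, DLAT and PDHX, the kinases PDK1, PDK2, PDK3 and PDK4, and the phosphatases PDP1 and PDP2. PDK1 was chosen by its low signal in the IDH1 R132H clones, and the other 9 genes were taken as its functional group. The array carried 24 probe sets for 9 of the 10 genes, of 54675 probe sets in all, and 20 of the 24 (9 genes) were bright enough to be tested, of 29070 tested in all. PDP2 had no probe set in the probe table used here and is not analysed here.

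The clones differ at IDH1 or IDH2, which encode NADP-dependent isocitrate dehydrogenases of the cytosol and of mitochondria, and each was measured in 2 biological replicates after 6 days of growth, which gave 18 arrays of total RNA. All clones are HCT116 cells grown without treatment. Counted as wild type were the parental line and 16F8, a clone targeted with IDH1 R132C whose label says that the mutant allele is not expressed. The label does not say that IDH1 expression in 16F8 matched that of parental. The clone mean of IDH1 signal was 1124.3 in 16F8, the lowest of the 9 clones, and 1850.95 in parental. It was 1334.3 to 2193 in the mutant clones, and the difference between 16F8 and parental at IDH1 was not tested. The mutant clones were 2C11 and 2H1 (IDH1 R132H/+), 3A4 (IDH1 R132C/+), 8G12 and 17H5 (IDH2 R140Q/+), and 47C2 and 45G3 (IDH2 R172K/+). Every genotype therefore rested on 1 or 2 clones. For R132C, where 3A4 was the only clone besides the non-expressing 16F8, genotype cannot be told apart from other differences of the clone. With 2 clones it can be told apart only weakly. The labels call the replicates biological and do not say that they were separate cultures, so p-values between clones measure only the spread between these arrays.

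The complex sits in the mitochondrial matrix and turns pyruvate into acetyl-CoA, which links glycolysis to the citric acid cycle. PDHA1 and PDHB form the decarboxylating E1 enzyme, DLAT is the acetyl-transferring E2 core, and PDHX is the binding protein that anchors the E3 enzyme to that core. The PDK kinases phosphorylate PDHA1 and switch the complex off, and the PDP phosphatases remove the phosphate and switch it on. PDK1 is a known target of the hypoxia-inducible factor HIF-1, which binds DNA at a core of ACGTG or GCGTG. PDK4 is known as a target of PPAR, FOXO and ERR factors.

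The promoter windows below are shown for the kinases whose signals differed most between clones. They are the 250 bases before an annotated start in RefSeq's GRCh38.p14 annotation, 5′ to 3′, and capitals mark ACGTG or GCGTG on either strand, so that CACGT and CACGC are the same motifs read on the other strand. For PDK1 the windows are chr2:172555123-172555372 (plus strand) and, for a second annotated start, the 30 bases nearest to it, chr2:172556060-172556089. For PDK3 the window is chrX:24465036-24465285 (plus strand), and for PDK4 it is chr7:95596517-95596766 (minus strand).
PDK1, first start: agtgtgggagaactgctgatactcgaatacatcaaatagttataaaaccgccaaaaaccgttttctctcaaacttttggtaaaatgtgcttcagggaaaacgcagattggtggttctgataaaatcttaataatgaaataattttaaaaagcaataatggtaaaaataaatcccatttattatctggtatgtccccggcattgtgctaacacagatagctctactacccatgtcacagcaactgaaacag
PDK1, second start: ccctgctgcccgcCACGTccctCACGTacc
PDK3: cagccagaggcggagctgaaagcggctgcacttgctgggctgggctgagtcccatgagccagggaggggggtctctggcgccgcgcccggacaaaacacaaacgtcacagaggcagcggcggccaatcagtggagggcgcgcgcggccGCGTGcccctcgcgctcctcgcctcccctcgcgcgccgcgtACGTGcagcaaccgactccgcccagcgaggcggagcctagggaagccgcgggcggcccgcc
PDK4: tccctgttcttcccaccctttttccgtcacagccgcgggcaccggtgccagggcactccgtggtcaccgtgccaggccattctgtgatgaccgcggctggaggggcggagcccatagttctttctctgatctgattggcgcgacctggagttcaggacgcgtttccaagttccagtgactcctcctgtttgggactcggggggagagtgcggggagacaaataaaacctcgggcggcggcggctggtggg
The second PDK1 start had a motif at 17 and another at 8 bases before it, and PDK3 had them at 102 and 61 bases before its start. No such letters were found in the window of the first PDK1 start or in that of PDK4. The motif was not particular to the kinases shown: RefSeq windows were found for 9 of the 10 genes, and 8 of these 9 had it in at least 1 window (8 of 13 windows), PDK4 being the exception. PDHB had 6 matches, PDHA1, DLAT, PDK2 and PDP2 had 3 each in 1 window, and PDHX had 2. Over all genes, 43.2% of 35116 RefSeq windows of 250 bases held at least 1.

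Signals are MAS5 intensities on a linear scale, and differences are given in log2 of the signal plus 2.2. The arrays had been scaled to 1 level, with array medians of 12.3 to 15.6. Replicate arrays of a clone correlated at 0.984 to 0.990 over all probe sets of the array, tested or not, and arrays of different clones at 0.970 to 0.988. Spiked poly-A controls were 1.68 times as high in 4 arrays (parental 1, 2C11 1, 16F8 1 and 8G12 2) as in the other 14. Of 10 colon epithelial markers 7 were tested, with summed signals of 10156 to 14740.1 per array, while VIL1, CDX1 and LGALS4 were below the filter. That sum is carried by bright keratins, and 6 of the 7 differed among the clones. Against parental, CDH1 (epithelial cadherin) fell in every clone but 17H5 (differences from -0.59 in 8G12 to -1.78 in 3A4). KRT20, a keratin of differentiated gut epithelium, fell in the R132H, R132C and R172K clones (from -0.86 in 45G3 to -1.82 in 47C2), as did the adhesion molecule EPCAM (from -0.39 in 45G3 to -0.78 in 2H1) except in 2C11 (-0.32, adjusted p = 0.0571). KRT8 rose by 0.38 in 2H1 and 3A4. Of 10 fibroblast markers only COL1A1 and ACTA2 passed it, and of 8 haematopoietic markers on the array LYZ and HBB did. Summed fibroblast signals were 368.9 to 513.8 in wild-type arrays and 285.6 to 460.9 in mutant arrays, and haematopoietic sums were 26.1 to 36.3 and 32.9 to 163.7. LYZ made up most of the latter rise, from 8.85 in parental to 139.7 in 2H1, while PTPRC and CD3E were below the filter. Their part in the results below was not tested.

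PDK1 signal was low in both IDH1 R132H clones, which is what it was chosen for, and it was also low in the IDH1 R132C clone and in both IDH2 R172K clones. It was close to the wild-type level in both IDH2 R140Q clones. With probe set 226452_at, the brighter of the PDK1 probe sets, the parental arrays read 689.6 and 599.7 and the 16F8 arrays 687.5 and 642.2. The R132H arrays read 297.5 and 295.6 in 2C11 and 266.3 and 278.9 in 2H1. All 4 R132H arrays lay below every other array. The R132C clone 3A4 read 470.9 and 325.5, a wide spread between its replicates. The R172K arrays read 451.4 and 437.7 in 47C2 and 466.4 and 444.0 in 45G3. These 6 arrays lay between the R132H arrays and the wild-type arrays and overlapped neither. The R140Q arrays read 547.6 and 693.9 in 8G12 and 688.0 and 760.0 in 17H5, and they overlapped the wild-type arrays. In bulk RNA such as this, fewer cells of a type and less RNA per cell cannot be told apart.

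**Figure D1:**
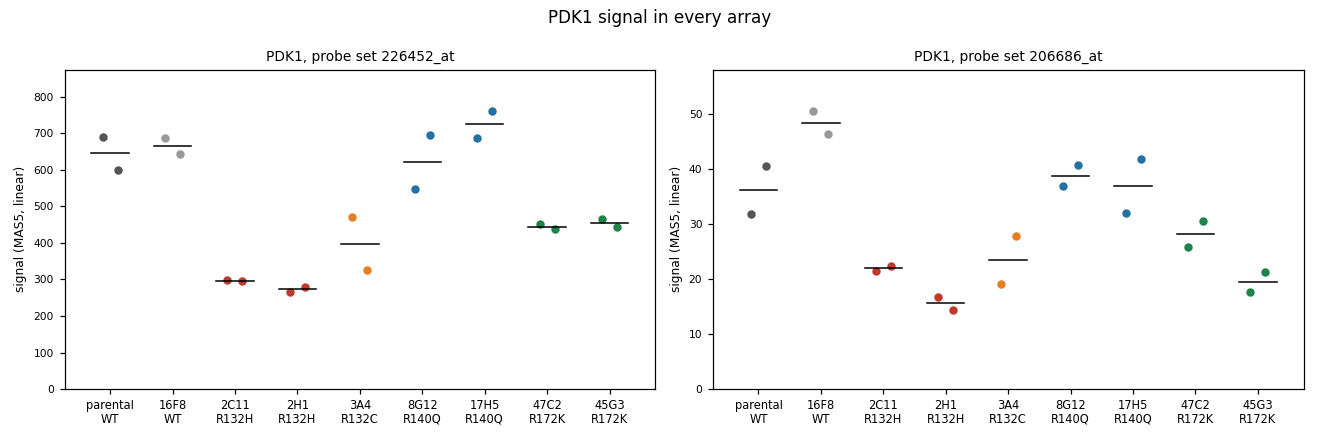
PDK1 signal (MAS5, linear scale, y axis) in each of the 18 arrays, by clone and genotype (x axis), for both tested probe sets; points are arrays and bars are means of the 2 arrays of a clone. With 226452_at the R132H clones lie at 272.6 and 296.55, the R132C and R172K clones at 398.2 to 455.2, and the R140Q and wild-type clones at 620.75 to 724.

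The test of PDK1 that leaves out the clones that chose it compared the 5 mutant clones without R132H. PDK1 differed among them with both probe sets (moderated F-test in limma over all tested probe sets, adjusted p = 0.000944 for 226452_at and 0.0162 for 206686_at). The error variance of that fit came from all 18 arrays. Fitted on the 10 arrays of these 5 clones alone, an alternative added after seeing the data, both still differed (adjusted p = 0.00395 and 0.0349, where 29.1% of all probe sets were called). With 226452_at the lowest PDK1 signal of these 5 clones was in 3A4, then 47C2 and 45G3, and the highest in 8G12 and 17H5. With 206686_at it was lowest in 45G3 (19.4), then 3A4 (23.4) and 47C2 (28.1), and again highest in the R140Q clones.

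Comparisons of PDK1 with a wild-type clone use the wild-type arrays of the contrast that chose PDK1, so their p-values are not independent of that choice. Against parental, PDK1 fell in 3A4 by 0.71 ± 0.15 (SE) on the log2 scale, a drop of 39.0% (limma, adjusted p = 0.00138). It fell in 47C2 by 0.53 ± 0.15 (adjusted p = 0.0152) and in 45G3 by 0.50 ± 0.15 (adjusted p = 0.0203). The estimates were -0.06 in 8G12 (95% interval -0.37 to 0.25), 0.17 in 17H5 (-0.14 to 0.48) and 0.05 in 16F8 (-0.26 to 0.36), none of them called. In 2C11 and 2H1 the differences were -1.11 and -1.23 and are given without a test. CDH1, KRT20 and EPCAM also fell in 3A4 (-1.78, -1.73 and -0.73), 47C2 (-1.58, -1.82 and -0.49) and 45G3 (-1.28, -0.86 and -0.39), and their part in the PDK1 result was not tested.

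The R172K calls were lost when single arrays were left out. Such a fit keeps a single array of a clone and has a wider error for every probe set. A lost call alone therefore does not show that the call rested on that array. Without parental replicate 1 the estimates were -0.43 in 47C2 and -0.40 in 45G3, and neither was called. Restricting the fit to the 14 arrays of low poly-A signal also ended them (-0.43, adjusted p = 0.0932, and -0.40, adjusted p = 0.118). The call in 47C2 was lost without either of its own arrays (adjusted p = 0.0695 without replicate 1 and 0.0963 without replicate 2), and the call in 45G3 without its replicate 2 (adjusted p = 0.105). The call in 3A4 held in all of these settings. With 16F8 as the wild-type reference, the differences were -0.76 in 3A4 (adjusted p = 0.00124), -0.58 in 47C2 (adjusted p = 0.0325) and -0.54 in 45G3 (adjusted p = 0.0833).

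In the order of clone means, 3 steps were larger than the pooled replicate SD of 0.16: from 2C11 (296.55) to 3A4 (398.2), from 3A4 to 47C2 (444.55), and from 45G3 (455.2) to 8G12 (620.75). The arrays of 3A4 and 47C2 overlapped. Neighbours within the R172K pair, within the R132H pair and among the 4 clones from 8G12 to 17H5 differed by less than that SD.

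The dimmer probe set 206686_at was also lowest in 2H1, but the R132H arrays were not all below the others. The R172K clone 45G3 (19.4) lay below the R132H clone 2C11 (21.9), and 1 array of 3A4 lay below both 2C11 arrays. Probe set 206686_at read 31.8 and 40.4 in parental, 21.5 and 22.3 in 2C11, 50.4 and 46.3 in 16F8, and 16.7 and 14.4 in 2H1. In 3A4 it read 19.0 and 27.8, in 47C2 25.7 and 30.5, and in 45G3 17.6 and 21.2. The R140Q arrays read 36.9 and 40.6 in 8G12 and 32.0 and 41.7 in 17H5, which overlapped parental, while all R132H, R132C and R172K arrays lay below both wild-type clones. PDK1 by this probe set fell against parental in 45G3 by 0.82 ± 0.23 (adjusted p = 0.0140), a call lost without parental replicate 2 (adjusted p = 0.118) or without 45G3 replicate 1 (adjusted p = 0.0824). The estimates in 3A4 (-0.59, adjusted p = 0.0552) and 47C2 (-0.33, adjusted p = 0.318) did not pass. Against 16F8 it differed in 3A4 (-1.0, adjusted p = 0.00422) and 45G3 (-1.23, adjusted p = 0.00757) and not in 47C2 (-0.74, adjusted p = 0.0763). The clone means of both probe sets correlated at 0.889 over the 9 clones. The other PDK1 probe set, 239798_at, read 0.1 to 3.5 and was below the filter.

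The comparison of genotypes used the clone as the replicate, and no member passed it. For PDK1 (226452_at), R132C differed from wild type by -0.74 ± 0.17 (1 clone against 2, adjusted p = 0.0695), and R172K by -0.54 ± 0.14 (2 against 2, adjusted p = 0.434). R140Q differed from wild type by 0.03 ± 0.14 (95% interval -0.27 to 0.34). The R172K clones were lower than the R140Q clones without overlap (-0.57 ± 0.14, 95% interval -0.87 to -0.26, adjusted p = 0.552), where 0% of all probe sets were called. R132H differed from wild type by -1.20 ± 0.14 and all 7 mutant clones by -0.59 ± 0.30, both given without a test. Called for R132C were 0 of 20 member probe sets (1.05% of all tested), with 6 at an unadjusted p under 0.05. Counts were also 0 of 20 for R140Q (0% of all tested, 1 member unadjusted), R172K (0% and 3) and R172K against R140Q (0% and 2), and 0 of 18 for mutant against wild type (0% and 0). All of these are limma fits on clone means. Without clone 16F8, calls over all probe sets went from 304 to 1620 for R132C and from 0 to 1168 for R172K, 139 for mutant against wild type and 48 for R140Q, and the member counts were still 0.

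PDK4, the kinase known for its induction by fasting and fatty acids, was low in the 3 IDH1-mutant clones. Its brightest probe set, 225207_at, read 202.5 and 195.1 in parental, 190.3 and 166.4 in 16F8, 145.3 and 127.4 in 2C11, 126.5 and 113.9 in 3A4, and 137.7 and 148.3 in 2H1. The IDH2-mutant arrays read 161.9 and 187.1 in 8G12, 199.4 and 217.1 in 17H5, 162.0 and 172.8 in 47C2, and 192.1 and 140.3 in 45G3. The IDH1-mutant arrays lay below all wild-type arrays, and 1 of the 45G3 arrays lay within the range of the IDH1-mutant arrays. Against parental, PDK4 fell in 3A4 by 0.72 ± 0.15 (adjusted p = 0.0016), in 2C11 by 0.54 ± 0.15 (adjusted p = 0.0167) and in 2H1 by 0.47 ± 0.15 (adjusted p = 0.0289). The other 5 clones differed by -0.27 to 0.07 and were not called.

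The PDK4 calls in 2C11 and 2H1 were lost without either parental array (adjusted p of 0.0595 to 0.120), in 2C11 without its replicate 2 (adjusted p = 0.134) and in 2H1 without either of its own arrays (0.154 and 0.0740). They were also lost in the 14 arrays of low poly-A signal (adjusted p = 0.0780 and 0.105) and with 16F8 as the reference (-0.38, adjusted p = 0.297, and -0.31, adjusted p = 0.196). In 3A4 the difference from 16F8 was -0.56 (adjusted p = 0.0129). PDK4 also differed among the 5 mutant clones without R132H (adjusted p = 0.00968, and 0.0222 on their 10 arrays alone). CDH1 and KRT20 fell in the same 3 IDH1-mutant clones (for CDH1, -0.998 in 2C11, -1.70 in 2H1 and -1.78 in 3A4), and also in both R172K clones, where PDK4 was not called; their part in the PDK4 result was not tested. The clone means of PDK4 and PDK1 correlated at 0.831, over 9 clones that share the array scaling. PDK4 probe sets 205960_at and 1562321_at read 0 to 5.7 and were below the filter.

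PDK3, the kinase least inhibited by pyruvate and most active of the family in biochemical assays, gave results that differed between its probe sets. The brightest, 228959_at, read 309.7 and 272.8 in parental, 373.9 and 296.9 in 2C11, 441.3 and 432.4 in 16F8, and 264.3 and 247.7 in 2H1. It read 184.5 and 182.8 in 3A4, 416.4 and 507.7 in 8G12, 343.3 and 407.3 in 17H5, 344.5 and 341.4 in 47C2, and 389.8 and 336.5 in 45G3. The 3A4 arrays were the lowest and the 8G12 and 16F8 arrays the highest. Against parental it fell in 3A4 by 0.66 ± 0.14 (adjusted p = 0.00147) and rose in 8G12 by 0.66 ± 0.14 (adjusted p = 0.00353) and in 16F8 by 0.58 ± 0.14 (adjusted p = 0.00678). The wild-type clones thus differed from each other, and the calls in 16F8 and 8G12 were lost without parental replicate 2 (adjusted p = 0.0772 and 0.0522). The call in 8G12 was also lost without its own replicate 2 (adjusted p = 0.0528). The 3A4 level was below both wild-type clones, at -1.24 against 16F8 (adjusted p = 5.07e-06), and 2H1 was below 16F8 (-0.77, adjusted p = 0.00108) but not called against parental (-0.18).

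Probe set 206348_s_at of PDK3 read 39.1 and 28.6 in parental and 56.9 to 95.5 in the other 16 arrays, with no overlap. It rose in all 8 clones against parental, from 0.80 ± 0.19 in 47C2 (adjusted p = 0.00502) to 1.33 ± 0.19 in 8G12 (adjusted p = 0.000133), and by 1.26 ± 0.19 in 16F8 (adjusted p = 0.00017). The calls in 17H5 and 47C2 were lost without parental replicate 2 (adjusted p = 0.0534 and 0.0748), and that in 47C2 also without its own replicate 2 (0.0605). Against 16F8 no mutant clone was called, and 5 of 7 lay below it. Probe set 221957_at (27.4 to 53.2) rose in 16F8 by 0.67 and in 8G12 by 0.77, and 206347_at (8.8 to 24) rose in 16F8 by 0.89 and in 2C11 by 0.88. All 4 of these calls were lost without either parental array and without either array of the clone itself (adjusted p of 0.0513 to 0.245). Probe set 206347_at passed the filter through 4 clones only (16F8, 2C11, 3A4 and 45G3), so a difference of its highest clones, 16F8 and 2C11, from parental follows in part from the filter and supports nothing. The other 19 tested probe sets passed the filter in all 9 clones. The 4 tested PDK3 probe sets correlated with each other at 0.178 to 0.86 over the 9 clones, and the positions of their probes in the transcripts were not analysed here. The remaining PDK3 probe set, 230085_at, read 2.1 to 7.8 and was below the filter.

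PDK2, the most widely expressed of the kinases, was not called in any clone against parental. Probe set 202590_s_at read 53.2 and 54.1 in parental and 55.0 to 87.8 elsewhere, with estimates of 0.12 to 0.44 whose adjusted p was 0.170 or more. Probe set 213724_s_at read 18.5 to 37.6. Its clone mean was lowest in parental (21.1) and highest in 17H5 (36.6), a difference of 0.74. Both probe sets lay above parental in all 8 clones, and in 5 and 4 of 7 mutant clones above 16F8.

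PDP1, the calcium-stimulated phosphatase of the complex, was bright in every clone and low in 3A4. Probe set 218273_s_at read 1706.2 and 1817.9 in parental, 1910.3 and 1754.1 in 16F8, 1272.4 and 1305.6 in 3A4, 1645.2 and 1873.8 in 2C11, and 1579.7 and 1566.4 in 2H1. It read 1599.8 and 1749.5 in 8G12, 1928.8 and 1852.4 in 17H5, 1753.1 and 1662.9 in 47C2, and 1562.0 and 1441.3 in 45G3. The 3A4 arrays were below all 16 others. PDP1 fell in 3A4 by 0.45 ± 0.09 against parental (adjusted p = 0.00141), and the other 7 clones, at -0.23 to 0.10, were not called. The second probe set, 222572_at (2162.8 to 3599.6), gave -0.42 ± 0.16 in 3A4, which did not pass (adjusted p = 0.0584). With 218273_s_at, PDP1 also differed among the 5 mutant clones without R132H (adjusted p = 0.00223, and 0.00457 on their 10 arrays alone). In 3A4, then, PDK1, PDK4 and PDP1 each fell with 1 probe set, while PDK3 fell with 228959_at and rose with 206348_s_at (0.85).

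**Figure D2:**
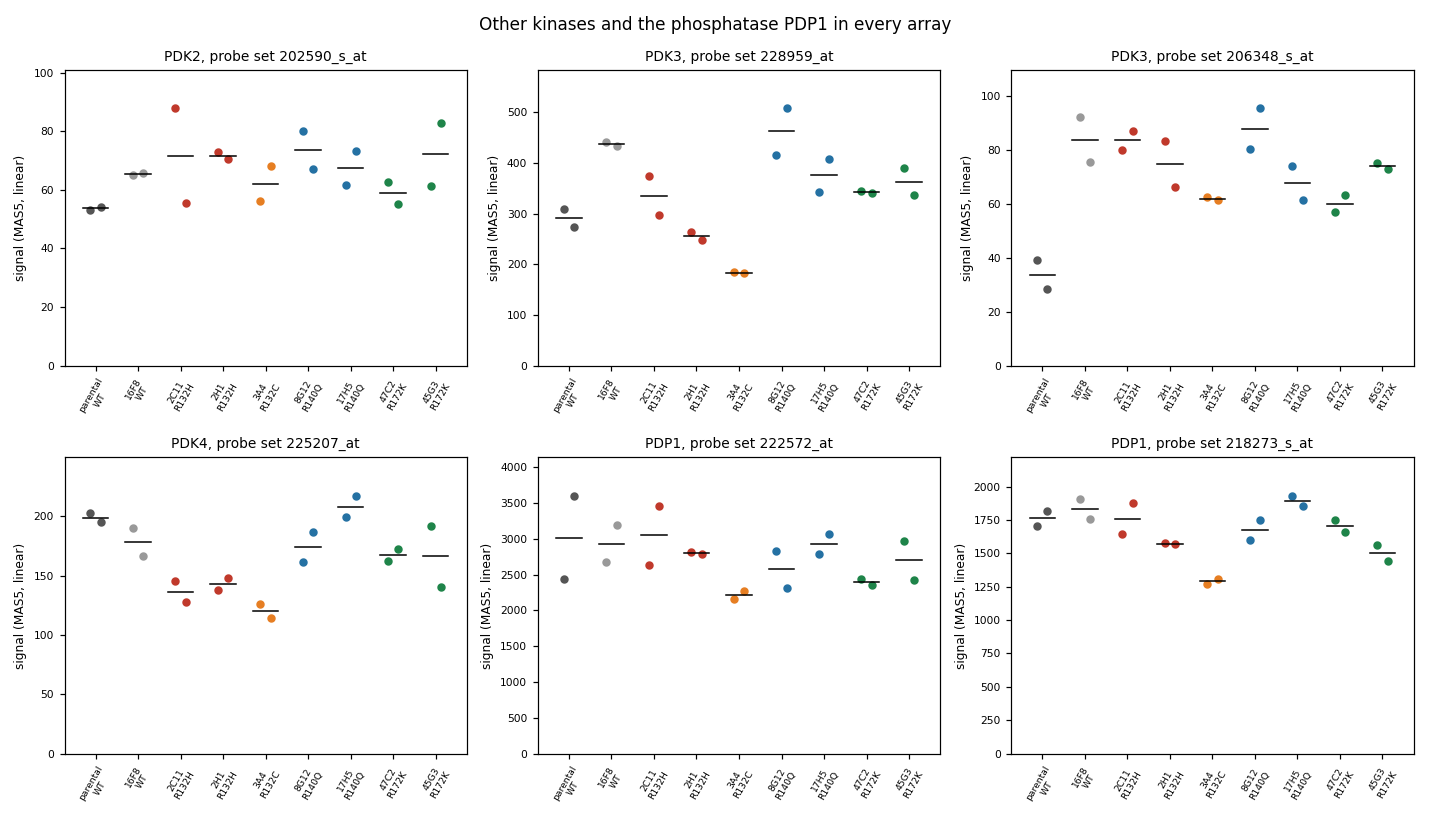
Signals (MAS5, linear scale, y axis) of PDK2, PDK3, PDK4 and PDP1 in each of the 18 arrays, by clone and genotype (x axis); points are arrays and bars are means of the 2 arrays of a clone. The lowest arrays of PDK3 228959_at, of PDK4 and of PDP1 218273_s_at are those of 3A4, while PDK3 206348_s_at is lowest in parental.

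Of the core subunits, PDHX was the only one whose mean was higher in each of the 7 mutant clones than in parental and in 16F8. It read 492.6 and 490.1 in parental, 676.9 and 655.6 in 2C11, 531.3 and 567.5 in 16F8, and 644.5 and 623.3 in 2H1. It read 588.9 and 518.9 in 3A4, 597.5 and 547.1 in 8G12, 542.0 and 608.0 in 17H5, 580.9 and 584.5 in 47C2, and 578.5 and 658.0 in 45G3. The R132H arrays were high, and arrays of 3A4, 8G12 and 17H5 overlapped those of 16F8. PDHX rose against parental in 2C11 by 0.44 ± 0.10 (adjusted p = 0.0062), in 2H1 by 0.37 ± 0.10 (adjusted p = 0.0153) and in 45G3 by 0.33 ± 0.10 (adjusted p = 0.0300). None of these was called against 16F8 (0.28, 0.21 and 0.17). The calls in 2H1 and 45G3 were lost without either parental array (adjusted p of 0.0612 to 0.103), in 2H1 without either of its own arrays (0.0938 and 0.0569) and in 45G3 without its replicate 2 (0.208). Restricted to the 14 arrays of low poly-A signal, all 3 were lost (adjusted p of 0.0610 to 0.0906). Over clones, mutant minus wild type was 0.20 ± 0.10 (adjusted p = 0.672).

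PDHA1, the subunit that the kinases phosphorylate, rose in several clones including the wild-type clone 16F8. Probe set 200979_at read 162.5 and 125.9 in parental, 199.4 and 226.3 in 16F8, 213.2 and 229.5 in 8G12, 232.5 and 194.2 in 47C2, and 208.6 and 199.1 in 45G3. It rose in these 4 clones by 0.56, 0.62, 0.56 and 0.50 (adjusted p of 0.00605 to 0.0137). The other 4 clones read 159.2 to 191.6, overlapping parental only in 3A4. Probe set 200980_s_at (630.2 to 1026.2) rose in 16F8, 3A4 and 47C2 by 0.42, 0.44 and 0.40, and 1555864_s_at (887 to 1229.3) in 45G3 by 0.32. All 3 probe sets had their lowest clone mean in parental. Every one of these PDHA1 calls was lost without parental replicate 2 (adjusted p of 0.108 to 0.349), and each of the 4 clones but 8G12 also lost its call with 200979_at without 1 of its own arrays (16F8 replicate 2, 0.0922; 47C2 replicate 1, 0.116; 45G3 replicate 1, 0.0593).

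DLAT, the E2 core, behaved in a like way with probe set 211150_s_at. It read 284.0 and 247.5 in parental, 485.0 and 452.1 in 16F8, 442.1 and 387.5 in 2C11, 337.3 and 295.6 in 3A4, and 302.0 and 312.1 in 2H1. It read 397.0 and 396.4 in 8G12, 368.5 and 345.7 in 17H5, 340.4 and 358.4 in 47C2, and 386.1 and 506.5 in 45G3. Of the clone means, that of parental was the lowest and that of 16F8, also wild type, the highest. It rose in 16F8 by 0.82 ± 0.13 (adjusted p = 0.000352), in 45G3 by 0.73, in 2C11 by 0.64, in 8G12 by 0.58 and in 47C2 by 0.39. The calls in 8G12 and 47C2 were lost without parental replicate 2 (adjusted p = 0.0814 and 0.229), and that in 47C2 without either of its own arrays (0.109 and 0.189). Probe set 212568_s_at (656.3 to 961.1) rose in 2C11 by 0.29 and in 16F8 by 0.37, both lost without either parental array (adjusted p of 0.0539 to 0.160), and 213149_at (1038.4 to 1543.3) was not called against parental. Against 16F8, all 3 DLAT probe sets were lower in 3A4 (211150_s_at -0.57, 212568_s_at -0.46 and 213149_at -0.41, adjusted p of 0.00292 to 0.00654). In 2H1, 211150_s_at (-0.61, adjusted p = 0.00476) and 213149_at (-0.34, adjusted p = 0.0334) were lower than 16F8, and in 47C2 212568_s_at was (-0.46, adjusted p = 0.0123). PDHB, the E1 beta subunit, read 943.4 to 1240.1 with 211023_at and 571.6 to 755 with 208911_s_at and was not called in any clone against parental. Against 16F8, 211023_at was lower in 3A4 (-0.27, adjusted p = 0.0391).

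**Figure D3:**
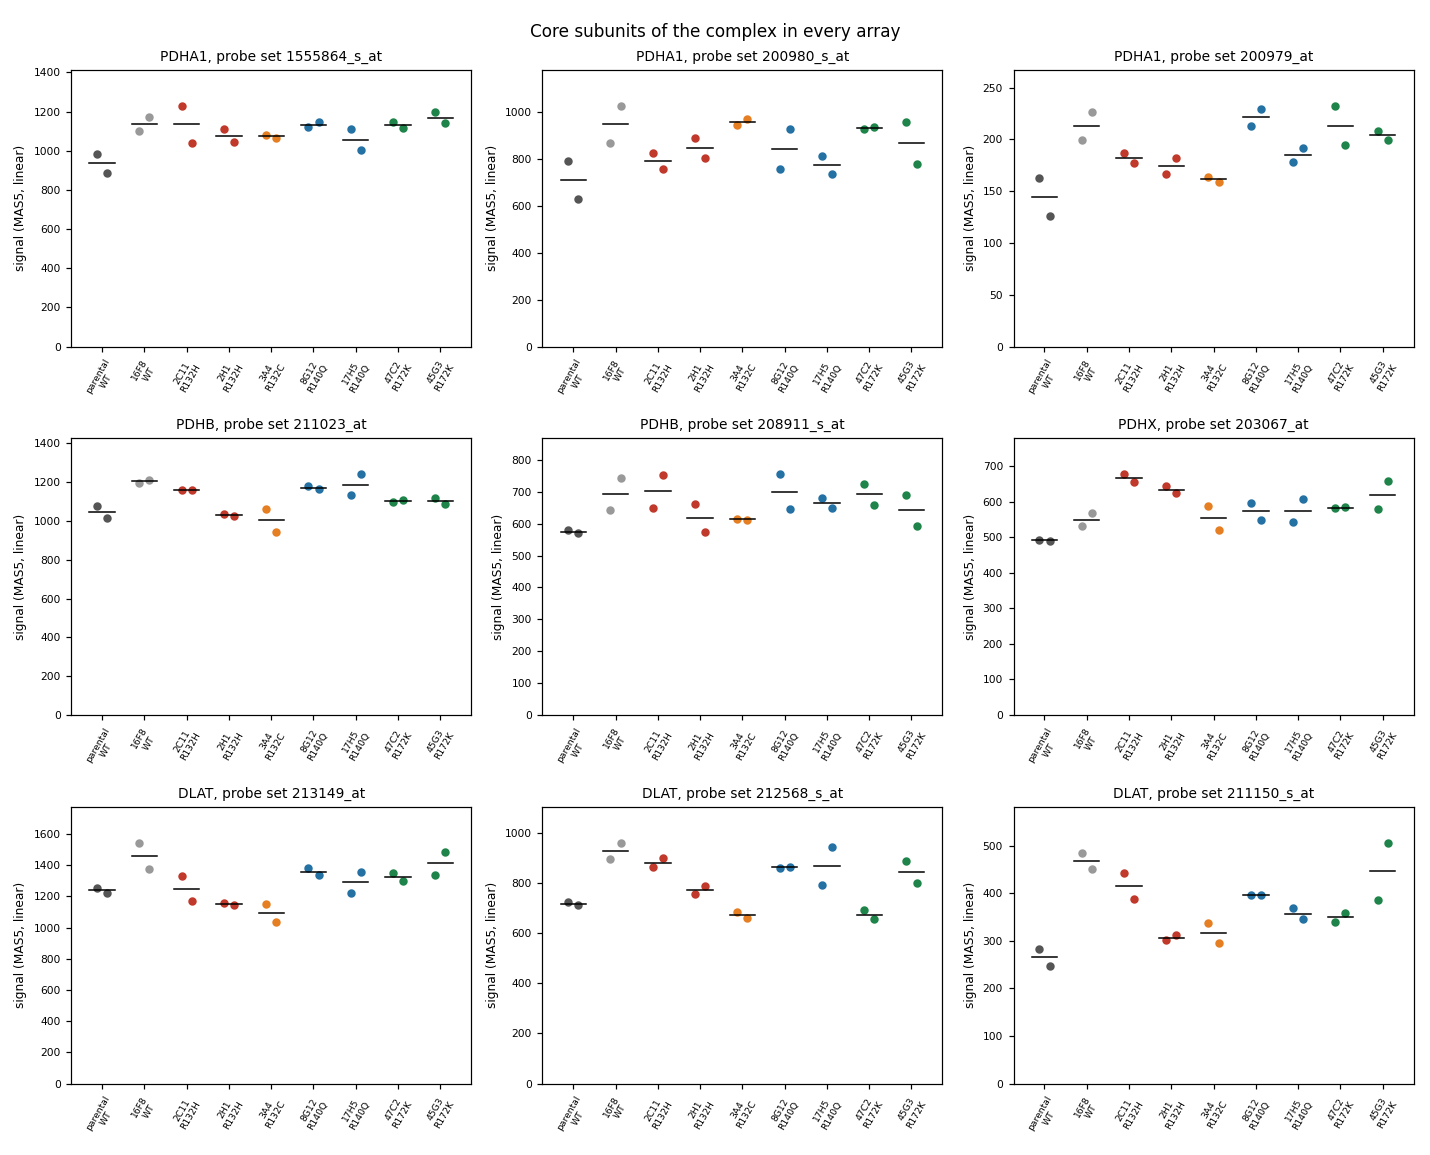
Signals (MAS5, linear scale, y axis) of all probe sets of PDHA1, PDHB, PDHX and DLAT in each of the 18 arrays, by clone and genotype (x axis); points are arrays and bars are means of the 2 arrays of a clone. The PDHA1 panels and DLAT 211150_s_at are lowest in parental and high in the wild-type clone 16F8, and PDHX is highest in the R132H clones.

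The member counts differed with the wild-type clone used as reference. Against parental, 8 of 20 member probe sets were called in 16F8 (16.4% of all tested), all of them higher (9.03% of all tested were called higher and 7.4% lower). In the R132H clones, PDK1 aside, 6 of 18 were called in 2C11 (20.5% of all tested, 10.9% higher and 9.6% lower), 5 of them higher. In 2H1, 3 of 18 were called (25.9% of all tested, 13.2% higher and 12.7% lower), 2 of them higher. In 3A4, 6 of 20 were called (31.5% of all tested, 15.7% higher and 15.8% lower), 4 of them lower. In the R140Q clones 5 of 20 were called in 8G12 (13.4% of all tested, 7.99% higher and 5.36% lower) and 1 of 20 in 17H5 (8.38%, 5.12% higher and 3.25% lower), all of them higher. In the R172K clones 5 of 20 were called in 47C2 (21.9% of all tested, 11.6% higher and 10.3% lower) and 7 of 20 in 45G3 (23.9%, 12.7% higher and 11.2% lower), with 1 and 2 of these lower. Without PDK3 206347_at, which passed the filter through 4 clones, the counts were 7 of 19 in 16F8 and 5 of 17 in 2C11. Without the PDK1 probe sets they were 5 of 18 in 3A4, 4 of 18 in 47C2 and 5 of 18 in 45G3. With these probe sets left out, the members' counts were near the background in 3A4, 47C2, 45G3 and 17H5. They were above it in 16F8 and 8G12, a little above it in 2C11, and below it in 2H1, although probe sets of 1 gene are not independent. Median member differences were 0.09 in 3A4 and 0.21 to 0.30 in the other clones, beside medians of 0.01 to 0.045 over all tested probe sets. All these comparisons share the 2 parental arrays, and 11 of 20 member probe sets were higher than parental in all 8 clones, as were 20.9% of all tested. The 11 and the medians include PDK3 206347_at, which passed the filter through 4 clones and not in parental. Its place among them supports nothing. Several of the 11 are probe sets of 1 gene and are not independent.

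Against 16F8, no member was called higher. Called lower were 9 of 20 in 3A4 (12.1% of all tested were called lower and 21.7% in either direction), 3 of 18 in 2H1 (6.69% and 12.3%), 2 of 20 in 47C2 (2.51% and 4.38%) and 1 of 20 in 45G3 (0.764% and 1.53%). Counts were 0 of 18 in 2C11 (1.41% of all tested), 0 of 20 in 8G12 (0.433%) and 0 of 20 in 17H5 (5.77%). Of the calls against 16F8, PDK1 made up 2 in 3A4, 1 in 47C2 and 1 in 45G3. Median member differences from 16F8 ran from -0.41 in 3A4 to -0.035 in 8G12, beside medians of -0.01 to 0.02 over all tested probe sets. They too include PDK3 206347_at, whose clone mean was highest in 16F8, a clone through which it passed the filter. The differences of PDK1, PDK3 (228959_at), PDK4 and PDP1 (218273_s_at) in 3A4 were called lower against either wild-type clone. None of the rises of DLAT, PDHA1 and PDK3 was called against 16F8. Between mutant clones of the same genotype, 0 of 20 members were called by limma in each pair: 2H1 and 2C11 (3.02% of all tested, smallest adjusted p = 0.0886), 17H5 and 8G12 (2.06%, adjusted p = 0.272) and 47C2 and 45G3 (1.86%, adjusted p = 0.114). At an unadjusted p under 0.05 there were 3, 1 and 3. Among all 9 clones, 8 of 18 differed (42.8% of all tested), and among the 5 mutant clones without R132H 6 of 20 (29.9%).

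**Figure D4:**
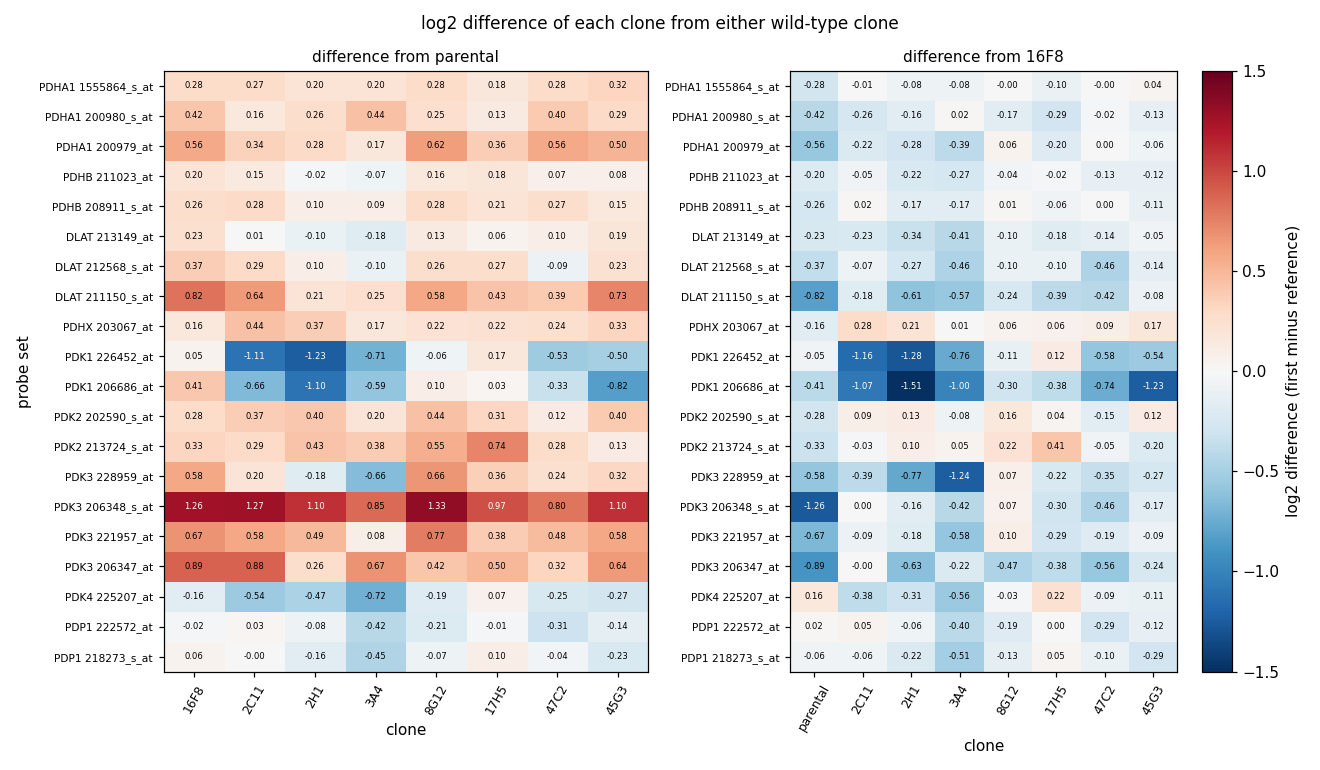
log2 difference of each clone (columns) from parental (left) and from 16F8 (right) for the 20 tested member probe sets (rows); red is higher and blue lower than the reference, and the number is the difference. PDK1 in 2C11, 2H1, 3A4, 47C2 and 45G3 is blue in both panels, while PDK3 206348_s_at and DLAT 211150_s_at are red on the left in every clone. On the right, DLAT 211150_s_at is lower than 16F8 in every clone, and PDK3 206348_s_at is higher only in 8G12 (0.07) and 2C11 (0.0017).

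Of 25 tested genes of 32 that feed, use or assemble the complex (pyruvate carriers, lactate dehydrogenases, lipoate synthesis, E3, citrate and acetyl-CoA enzymes), 9 differed among the 9 clones (49.4% of all genes tested with 1 probe set each) and 8 among the 5 mutant clones without R132H (34.9%). Against parental, 4 to 6 were called in each clone, where 10.2% (17H5) to 35.6% (3A4) of all genes were. PCK2, the mitochondrial enzyme that makes phosphoenolpyruvate, had the smallest p. It read 1309.45 in parental, 1000.15 in 17H5, 454.25 in 8G12 and 240.6 to 322 in the other 6 clones, and it was lower than parental in all 8 clones, with -2.37 ± 0.11 in 16F8 (adjusted p = 1.06e-09) and calls in each. ACSS2, which makes acetyl-CoA from acetate, fell in 16F8, 2C11, 2H1, 8G12, 17H5 and 45G3, by 0.62 to 1.16. SLC25A1, the mitochondrial citrate carrier, rose in 7 clones by 0.39 to 0.95 and was not called in 3A4 (0.25). ACLY, which splits citrate into acetyl-CoA, rose in 16F8 (0.47) and 2C11 (0.51).

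The sister complexes for 2-oxoglutarate and branched-chain keto acids share their architecture with the pyruvate complex, and genes of the glycine cleavage system were listed with them. All 12 genes were tested, and 6 differed among the 9 clones, near the 49.4% of all genes that did. In 3A4, 4 fell and 1 rose against parental (35.6% of all genes were called), and in the other 7 clones 0 to 3 were called (10.2% to 29.5% of all genes). OGDHL, a 2-oxoglutarate dehydrogenase paralog, read 49.4 in 3A4 and 114.5 in parental and fell by 1.16 ± 0.24 (adjusted p = 0.00164). BCKDHA, the branched-chain E1 alpha subunit, read 31.8 in 3A4, 34.05 in 45G3 and 37.75 in 2H1 against 77.05 in parental, with falls of 1.20, 1.11 and 0.97. DHTKD1, an enzyme of lysine breakdown, fell in 3A4 by 0.45. GLDC of the glycine cleavage system rose in 2H1, 3A4, 17H5, 47C2 and 45G3 by 0.59 to 0.90.

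Of 28 tested HIF-1 targets besides PDK1, 17 differed among the 9 clones (49.4% of all genes) and 16 among the 5 mutant clones without R132H (34.9%). Against parental, both R140Q clones had only higher calls (7 of 28 in 8G12, where 16.6% of all genes were called, and 5 in 17H5, where 10.2% were). In 2C11, 8 fell and 4 rose (24.2% of all genes called), in 2H1, 6 fell and 6 rose (29.5%), and in 3A4, 5 fell and 3 rose (35.6%). In 16F8, 7 rose and 2 fell (19.9%), in 47C2 1 rose and 3 fell (26% of all genes), and in 45G3 5 rose and 4 fell (27.9%). Median differences lay between -0.06 and 0.09, beside -0.02 to 0.04 over all genes. ALDOC, a glycolytic aldolase, fell in 3A4 by 1.71, in 2H1 by 1.18 and in 2C11 by 1.05, and rose in 16F8 (0.52) and 8G12 (0.48). HK2, the first enzyme of glycolysis, fell in 2H1 by 0.77 and in 2C11 by 0.35, while in 3A4 the difference was -0.29 (adjusted p = 0.0503). SLC2A3, a glucose transporter, fell in 2C11 by 1.55 and in 3A4 by 1.95, but rose in 2H1 by 0.39, in 45G3 by 1.02, in 17H5 by 0.79 and in 8G12 by 0.71. BNIP3, a mitophagy receptor, rose in 16F8, 8G12, 17H5 and 45G3 by 0.32 to 0.70 and fell in 2H1 by 0.38.

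Of 17 tested genes of the PPAR, FOXO and ERR axis of PDK4 and PDK2, 11 differed among the 9 clones (49.4% of all genes) and 8 among the 5 mutant clones without R132H (34.9%). Against parental 3 to 7 were called in each clone, where 10.2% to 35.6% of all genes were. PPARG, a lipid-sensing nuclear receptor, rose in 2H1 by 1.11 and in 3A4 by 1.22, and fell in 16F8 (-0.93), 8G12 (-0.69) and 17H5 (-1.20). CPT1A, the gate of mitochondrial fatty acid import, rose in all 8 clones including 16F8, by 0.49 to 0.75. FOXO3, a factor that activates PDK4 in other settings, fell in 16F8, 2C11, 2H1, 3A4 and 47C2 by 0.32 to 0.68. ACADVL, a fatty acid oxidation enzyme, fell in 16F8, 2C11, 17H5 and 45G3 by 0.34 to 0.47. Of the 4 lists' genes on the array, PPARGC1A, ESRRG, UCP3, LOX, PDHA2, PCK1, ME3 and ACSS1 were below the filter.

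PDK1's pattern over the 9 clone means was compared with 3145 genes whose clone means varied by an SD of at least 0.3 on the log2 scale. These correlations describe 9 points that share libraries and scaling and carry no test, and the 9 include the R132H and wild-type clones whose values chose PDK1. The highest were CPLANE2 (r = 0.963), QTGAL (0.952), the efflux transporter ABCC2 (0.942), the adhesion molecule ICAM1 (0.940) and the mTOR inhibitor DEPTOR (0.926). ABCC2 read 98.65 to 148 in the 3 IDH1-mutant clones, 220.15 and 233.8 in the R172K clones, and 313.5 to 396.5 in the wild-type and R140Q clones, with no overlap between these sets of clones. The lowest were the matrix protein TINAGL1 (-0.967), ZNF136 (-0.946) and ABTB2 (-0.934). TINAGL1 read 566.1 to 716.6 in the IDH1-mutant clones and 306.45 to 354.35 in the wild-type and R140Q clones. Of genes named above, HK2 stood at 0.913, higher than 99.7% of the 3145. ALDOC stood at 0.846 (higher than 97.3%), BNIP3 at 0.790 (93.5%) and SLC2A3 at 0.467 (65.6%). HIF1A itself, a gene picked by hand, stood at -0.707, with 5.9% of the 3145 lower. Also looked up by hand were EGLN3 (0.421), IDH1 (-0.627) and IDH2 (0.532). The epithelial cadherin CDH1 stood at 0.776, higher than 92.6% of the 3145. Its repressor ZEB1, also picked by hand, stood at -0.815, with 2% lower. In the 5 clones outside the contrast that chose PDK1, the order from 3A4, 47C2, 45G3 and 8G12 to 17H5 was one of rising PDK1, rising CDH1 (451.75, 520.1, 646.05, 1036 and 1309.35) and declining ZEB1 (429.75, 305.2, 269.25, 158.05 and 117). The R132H clone 2C11 went against that order. Its PDK1 (226452_at) was below that of 47C2 and 45G3, while its ZEB1 (216.65) was lower and its CDH1 (792.1) higher than theirs. The order held with PDK1 probe set 226452_at and not with 206686_at, where PDK1 rose from 45G3 to 3A4, 47C2, 17H5 and 8G12. With 226452_at the PDK1 arrays of 3A4 and 47C2, of 47C2 and 45G3, and of 8G12 and 17H5 overlapped.

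**Figure D5:**
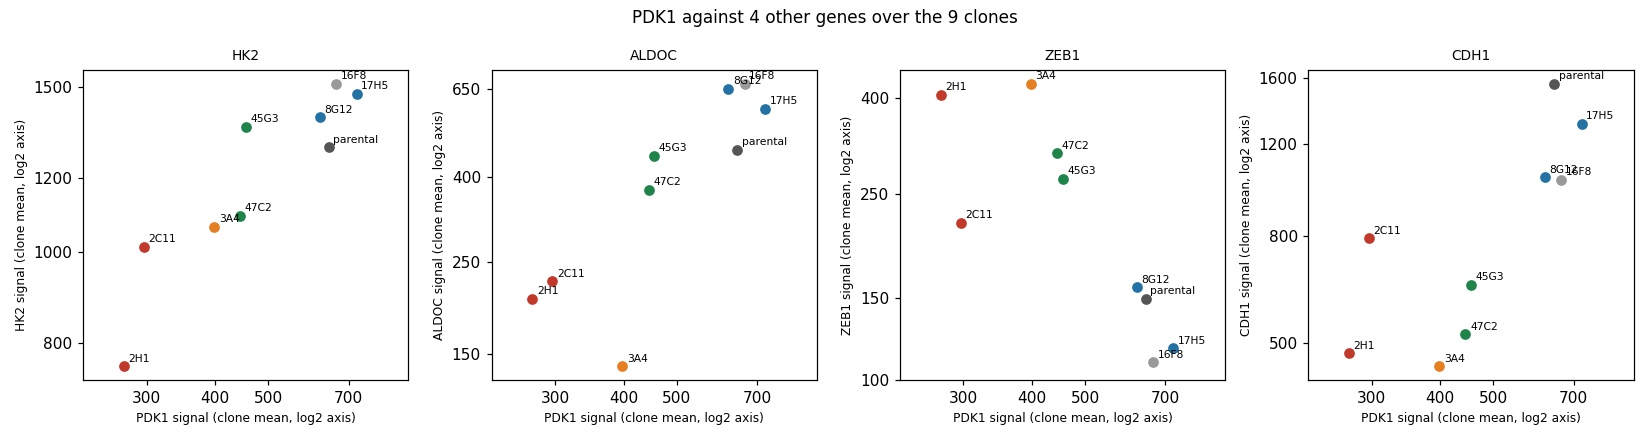
Clone means of HK2, ALDOC, ZEB1 and CDH1 (y axes, MAS5 signal on log2 axes) against PDK1 226452_at (x axes, log2 axes) for the 9 clones, with 1 point for each clone, coloured by genotype. Over the 9 clones r is 0.913 for HK2, 0.846 for ALDOC, 0.776 for CDH1 and -0.815 for ZEB1, with 2C11 off the order of ZEB1 and CDH1.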

How the data were processed

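Total RNA of 18 samples (9 HCT116 clones, 2 biological replicates each) was amplified, labelled with biotin and hybridised to one-colour Affymetrix arrays, per the labels' protocols. The deposited values are probe set intensities on a linear scale, made with MAS5 per the submitters' processing notes (no settings given in the sources used here). The trimmed mean of the middle 96% was 150.01 to 150.02 in every array, so the authors' values were used without further scaling. A MAS5 signal can fall to 0 for dim probe sets, so log2(signal + 2.2) was taken, 2.2 being the 25th percentile, which understates changes of dim probe sets. Tests took in the probe sets that reached the array median in both replicates of 1 clone or more. Of all probe sets, 41091 had 1 gene symbol in the platform's annotation, 1801 several and 11721 none, and 62 were controls.

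Tests were two-sided, from limma 3.58.1 (lmFit, eBayes with trend) under R 4.3.3, with Benjamini-Hochberg adjustment over all tested probe sets at 0.05. Clones were compared on 18 arrays (9 residual degrees of freedom), genotypes on clone means (4, or 7 for mutant against wild type). R132C, with 1 clone, took its spread from the other genotypes. PDK1 was not tested in the contrasts that chose it, and no member was tested for R132H against wild type. A gene's representative was its brightest probe set. Precision is limited by 2 arrays per clone. The scripts were tested on simulated data. Named were all members by every probe set, the 4 genes of each list with the smallest p among the 9 clones, and the 5 highest and 3 lowest correlations with PDK1. Outside these rules, ZEB1, HIF1A, EGLN3, IDH1 and IDH2 were picked by hand for their correlation with PDK1. The members and lists were chosen with earlier results of these data known. Alternatives changed the offset, filter, normalization, choice of probe set, variance model, unit of replication or wild-type reference, added a poly-A term or the replicate number as a block, or left out arrays or clones; restricting the fit to the 14 arrays of low poly-A signal, or to the 10 arrays of the 5 mutant clones without R132H, was chosen after seeing the data. Deviations of same-numbered replicates correlated at -0.38 to 0.34 over 36 pairs of clones, with no common sign, and the main fits used no replicate block. Pairing within some of the clones cannot be told from this range. Promoter windows came from RefSeq (GRCh38.p14). Figures used matplotlib 3.10.9 under Python 3.11.15.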

Additional observations from a re-analysis of the deposited data

Results flagged for a closer look

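DLAT, the E2 core of the complex, had 1 IDH2-mutant clone far from the others with probe set 212568_s_at. Among the 4 IDH2-mutant clones, 47C2 read 674.75 and the nearest clone, 45G3 of the same genotype, 844.45, a gap of 0.896 of the whole range, where 0.829 is the 95% critical value for 4 clones. In all, 40 groups of clone means were looked at, and chance alone passes that value in about 1 in 20. The difference between 47C2 and 45G3 did not pass limma's test over all probe sets (-0.32, adjusted p = 0.114), while 47C2 was called lower than the wild-type clone 16F8 (-0.46, adjusted p = 0.0123) and not against parental. DLAT probe set 211150_s_at differed between 47C2 and 45G3 by -0.34 (adjusted p = 0.213).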

How the results depend on the processing

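No comparison rests on more than 2 arrays a clone or 2 clones a genotype, and the parental arrays enter every comparison with parental. Member counts against parental changed with the setting as follows. With 1 probe set per gene, and so fewer probe sets, they were 2 in 16F8, 0 in 17H5, 2 in 47C2, 3 in 2C11, 3 in 3A4, 1 in 8G12 and 3 in 45G3, and 4 among the 9 clones. With 16F8 as the reference they were 0 in 17H5, 2C11 and 8G12, 2 in 47C2 and 1 in 45G3. Without the filter they were 5 in 16F8 and 3 in 47C2, and without the variance trend 2 in 17H5 and 3 in 47C2. With a term for high poly-A controls they were 4 in 17H5 and 8 in 47C2, and on low poly-A arrays alone 5 in 16F8 and 2 in 2C11. In 17H5 the count was 3 with an offset of 16 and 2 with an offset of 50. With the clone as a random block over arrays, R132C against wild type called 4 members. The cause of these shifts was not tested.

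Leaving out arrays or clones in turn gave 2 to 8 in 16F8, 0 to 3 in 17H5, 3 to 6 in 2C11, 1 to 3 in 2H1, 5 to 7 in 3A4, 3 to 8 in 45G3, 1 to 6 in 47C2 and 1 to 5 in 8G12. The ranges were 0 to 1 for 2H1 against 2C11, for 47C2 against 45G3 and for R132C, 5 to 8 among the 5 mutant clones without R132H and 7 to 9 among all 9 clones. The lowest of these in 16F8, 2C11, 2H1, 8G12, 17H5, 47C2 and 45G3 came without parental replicate 2, and in 2H1 and 47C2 also without either array of the clone itself. Calls over all probe sets also fell without parental replicate 2 in 16F8, 2C11, 8G12, 17H5 and 47C2. They fell in 2H1 and 47C2 without either array of the clone itself. Falls on leaving out an array were thus not particular to the members. The count in 16F8 was 5 without parental replicate 1 and 3 without its own replicate 2, in 8G12 3 without its replicate 2, and in 45G3 4 without its replicate 2. Without either 45G3 array the count was 3 in 17H5 and 1 for 2H1 against 2C11, and without 45G3 replicate 1 it was 1 for 47C2 against 45G3. The replicate number as a block gave 5 calls in 2C11 and 7 in 3A4 and ended the call of DLAT 212568_s_at in 2C11 (adjusted p = 0.0530).

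Signs turned only with 16F8 as the reference, among called members: DLAT 212568_s_at in 2C11 (-0.0748); DLAT 211150_s_at in 2C11 (-0.18), 8G12 (-0.24), 47C2 (-0.42) and 45G3 (-0.0821); PDK3 206347_at in 2C11 (-0.0018); PDK3 206348_s_at in 2H1 (-0.16), 3A4 (-0.42), 17H5 (-0.30), 47C2 (-0.46) and 45G3 (-0.17); PDHA1 200980_s_at in 47C2 (-0.0198) and 200979_at in 45G3 (-0.0592). Over all probe sets, calls with 16F8 as the reference in place of parental went from 5954 to 410 in 2C11, 3881 to 126 in 8G12, 6941 to 444 in 45G3, 6353 to 1272 in 47C2 and 7517 to 3580 in 2H1. On low poly-A arrays alone they went from 4776 to 2845 in 16F8, 5954 to 3549 in 2C11, 3881 to 2425 in 8G12, and 879 to 522 for 2H1 against 2C11. With the poly-A term they went from 2435 to 4008 in 17H5, 598 to 1318 for 17H5 against 8G12, and 540 to 1269 for 47C2 against 45G3, which became 345 without the filter. For R132C, 304 became 2336 with the random block, 97 without the trend, 154 without the filter and 171 with quantile normalization. The random block gave 190 for R172K, 122 for R172K against R140Q and 4 for mutant against wild type, and an offset of 50 gave 1 for R172K, all from 0. Without clone 16F8, and so with parental as the only wild type, 304 became 1620 for R132C, and 0 became 1168 for R172K, 48 for R140Q, 5 for R172K against R140Q and 139 for mutant against wild type, while member counts in these comparisons were 0. Fitting the 10 arrays of the 5 mutant clones without R132H alone gave 6 members among those clones, as on all arrays.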
